A study of Mus musculus with 16 samples.

Results

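The genes described are 6 that mark the alpha cell of the mouse islet, namely Gcg, Ttr, Gc, Irx1, Irx2 and Pou3f4. They were chosen by symbol, and all 6 were in both expression tables, which list 17361 and 17318 genes with 16815 in common. Islet RNA was sequenced in 16 libraries, 4 from every one of 4 groups. In Flox mice, loxP sites surround exon 2 of Vtcn1, the gene of the immune checkpoint molecule B7-H4. B7-H4 cKO mice carry the same floxed alleles and Cre recombinase under the rat insulin II promoter. Both were C57BL/6J mice kept on a normal chow diet, and their age at islet collection was not given in the sources used here. The other groups were fed a high-fat diet (HFD) for 8 weeks from 6 weeks of age and then received virus through the pancreatic duct, either the control virus (Ctrl) or an adeno-associated virus that carries B7-H4 behind an insulin promoter (OE). The series text calls the HFD-fed mice wild type and the methods call them Flox mice. Cre and the B7-H4 virus were both driven by insulin promoters, which are active in beta cells and not in alpha cells, and none of the 16 libraries came from mice with Cre alone. The paper gives as a limit that Ins2 may also be expressed in the hypothalamus. Libraries are named as in the tables (cKO8, 9, 12 and 38, Flox16, 17, 20 and 21, Ctrl1, 2, 3 and 5, OE1 to 4). How many animals went into a library was not stated, so the p-values measure the spread between libraries.

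Alpha cells secrete glucagon, which raises hepatic glucose output when blood glucose falls. The convertase PC2 cuts it out of proglucagon, and insulin from beta cells and somatostatin from delta cells restrain its release. Gcg encodes proglucagon. Ttr encodes transthyretin, the carrier of thyroxine and retinol-binding protein, and Gc encodes the vitamin D binding protein. Both proteins are made mainly by the liver, and within the islet their transcripts are enriched in alpha cells. Irx1 and Irx2 are homeobox factors of the Iroquois family that are expressed in alpha cells, and Pou3f4 (Brn4) is a POU-domain factor that can act on the glucagon promoter.

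The values are FPKM, fragments scaled by gene length and library total, so levels can be compared between genes per length. Depth in reads was not given, and relative depths within a table, read from the steps between low values, were 0.942 to 1.07 for cKO and Flox and 0.840 to 1.08 for Ctrl and OE. The libraries differed in exocrine RNA. In cKO libraries 34.0 to 43.0% of the summed FPKM came from 19 acinar genes, against 6.96 to 33.2% in Flox libraries, and these ranges do not overlap. The acinar share was 5.10% in Ctrl1, 52.8% in Ctrl2, 68.8% in Ctrl3 and 1.99% in Ctrl5, and 10.3 to 13.5% in OE libraries. Ctrl2, Ctrl3 and Ctrl5 stand apart from the other libraries, and results that rest on them are given with and without them. Vtcn1 itself lay between 0.0188 and 0.216 FPKM in Flox libraries and between 0.0202 and 0.125 FPKM in cKO libraries, so the deletion cannot be read from its level. By quantitative PCR and Western blot the study reported less B7-H4 in cKO than in Flox islets. In OE libraries Vtcn1 was at 40.0, 128, 74.1 and 60.5 FPKM, against 0.0636, 0.371, 0.349 and 0.284 FPKM in Ctrl libraries.

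Gcg was the most abundant of the 6 genes in every library, and the order Gcg, Ttr, Gc, Irx1, Irx2, Pou3f4 on the FPKM scale held in all 16. Gcg took 0.103% of the summed FPKM in Ctrl3 and 13.2% in Ctrl5, the lowest and the highest library. By group medians Gcg was at 27560 FPKM in OE, 13280 FPKM in Ctrl, 10834 FPKM in Flox and 6104 FPKM in cKO. Each neighbouring pair in this order overlapped, and the step from Ctrl to Flox crosses tables that were made separately. Ttr medians were 1201 FPKM in OE, 696 FPKM in Flox, 679 FPKM in Ctrl and 300 FPKM in cKO. Gc followed the same order, with medians of 46.7, 39.5, 35.5 and 15.6 FPKM. For Ttr the lowest OE library (1125 FPKM) lay above the highest Flox library (803 FPKM), and for Gc these nearly met (43.4 and 43.1 FPKM). Both steps again cross separate tables, and the share of all genes with such a gap was not computed. The other neighbours overlapped. For Irx1 and Irx2, which both lie on chromosome 13, medians were highest in OE (6.18 and 3.01 FPKM) and lowest in cKO (2.12 and 1.27 FPKM), and all neighbouring groups overlapped.

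**Figure D1:**
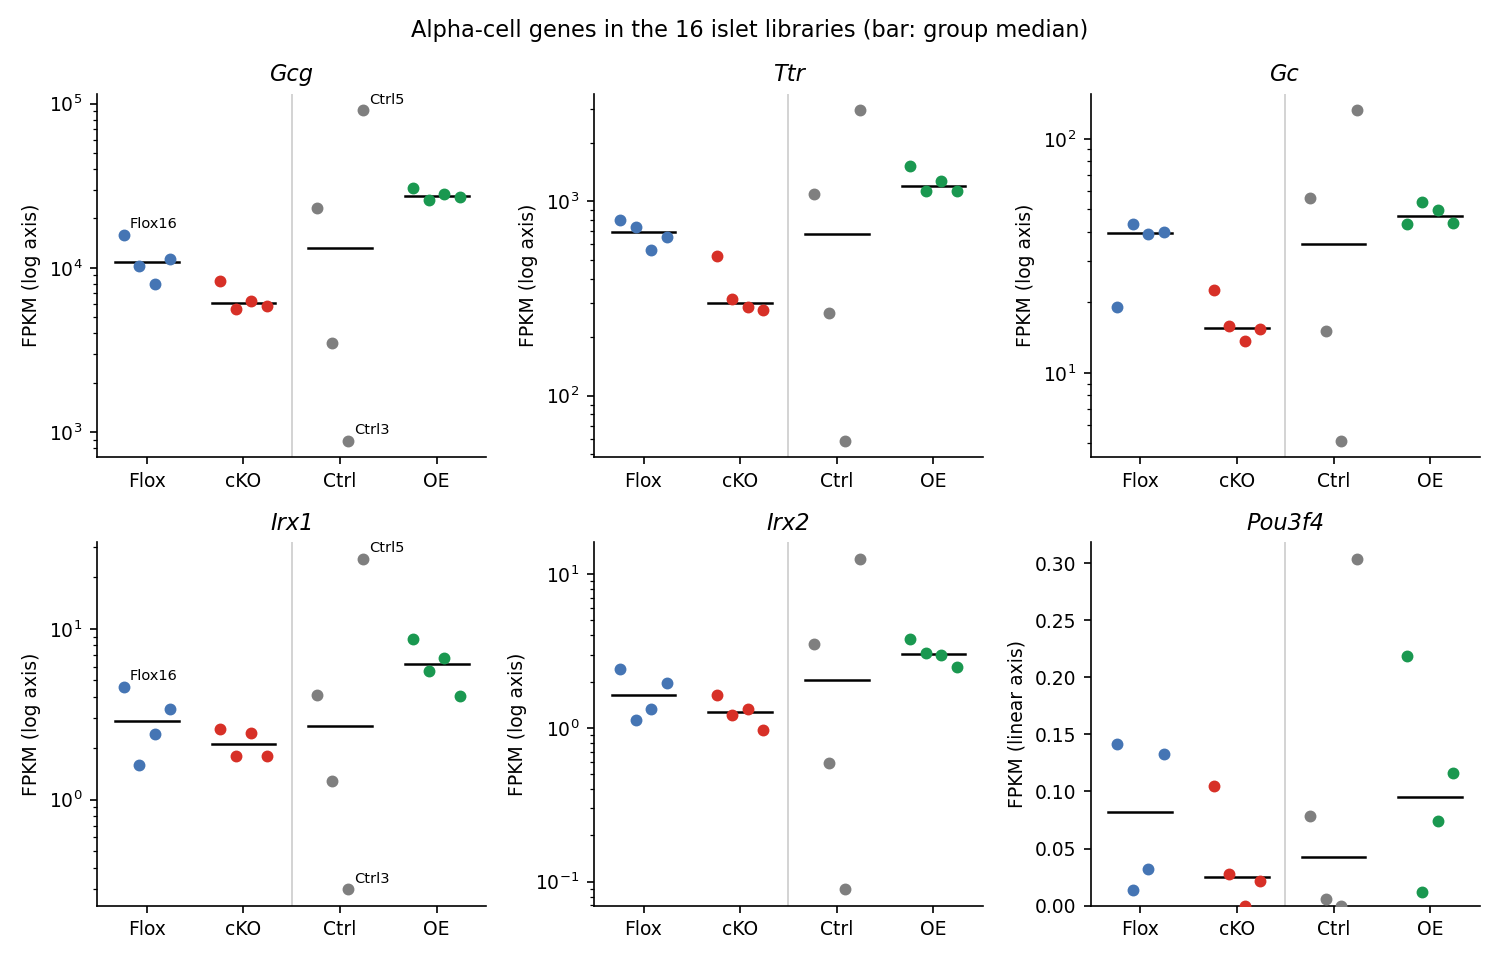
Level of each gene in FPKM in the 16 libraries, with a point for each library and a bar at the group median (log axes, except a linear axis for Pou3f4, and the grey line separates the 2 tables). The Ctrl points run from 889 to 91444 FPKM for Gcg, while the OE points of that gene lie within 25847 to 30835 FPKM.

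The other islet and non-islet cell types were checked because some of these genes are expressed elsewhere. Of 9 hepatocyte genes, 8 were in the tables, and together they made up at most 0.00187% of the summed FPKM, with albumin (Alb) at no more than 2.44 FPKM. Ttr and Gc were thus measured with liver transcripts near 0. Glucagon is also made by intestinal L cells, and 7 intestinal genes were measured in each table. Of these the microvillus gene Vil1 was at 25.8 to 34.4 FPKM in cKO and 25.4 to 36.8 FPKM in Flox libraries. In cKO libraries Cdx1, Muc3, Clca1 and Mptx1 were at 0 throughout, Cdx2 was at 0.0160 FPKM in cKO38 and Fabp2 at 0.0342 FPKM in cKO8, and both were at 0 in the others. Flox17 had Mptx1 at 15.9, Clca1 at 8.09, Muc3 at 0.884 and Cdx1 at 0.276 FPKM, each at 0 in the other Flox libraries. In OE1, OE3 and OE4 the intestinal fatty acid binding gene Fabp2 was at 0.446, 0.927 and 1.19 FPKM, with Sis, Muc3 and Clca1 also above 0, whereas Cdx1, Muc3, Clca1, Fabp2 and Sis were at 0 in the Ctrl libraries. The part of these transcripts in the Gcg values was not tested. Gcg in Flox17 (10299 FPKM) lay between the values of Flox20 and Flox21. All 6 genes were above 0 in at least 1 library of each group.

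The regions just before the transcription start are shown for Gcg, Gc and Irx2. Gcg and Gc were lower in cKO islets at an adjusted p under 0.05 (limma), and Irx2 did not pass this threshold. RefSeq sequence of GRCm38.p6 was matched by symbol for 4 of the 6 genes. Ttr and Irx1 had no entry. Each line is the 250 bases before the start, 5′ to 3′ on the gene's strand. Capitals mark the TATA box (TATAAA), a forkhead-type core (TATTTAC) and, in the Gc line, the core of the palindrome bound by HNF1 factors, with any base in its centre. All were searched on both strands.
Gcg: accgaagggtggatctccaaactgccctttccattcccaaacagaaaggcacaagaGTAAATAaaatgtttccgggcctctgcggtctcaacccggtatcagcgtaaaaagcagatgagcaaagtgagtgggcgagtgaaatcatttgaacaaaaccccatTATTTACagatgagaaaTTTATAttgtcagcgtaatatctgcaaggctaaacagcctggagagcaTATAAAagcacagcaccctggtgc
Gc: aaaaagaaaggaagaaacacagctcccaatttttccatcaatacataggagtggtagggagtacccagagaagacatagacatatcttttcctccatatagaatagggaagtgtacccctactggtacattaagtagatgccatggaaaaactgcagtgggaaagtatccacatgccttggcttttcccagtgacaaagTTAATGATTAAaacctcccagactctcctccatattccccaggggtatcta
Irx2: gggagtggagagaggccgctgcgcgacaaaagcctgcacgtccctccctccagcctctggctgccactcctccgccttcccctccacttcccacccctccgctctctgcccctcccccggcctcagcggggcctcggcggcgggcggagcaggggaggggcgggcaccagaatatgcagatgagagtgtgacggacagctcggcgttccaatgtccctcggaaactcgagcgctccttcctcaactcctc
The Gcg sequence is chr2:62483654-62483903 on the minus strand, the Gc sequence chr5:89457899-89458148 on the minus strand and the Irx2 sequence chr13:72628570-72628819 on the plus strand. The Gcg window held TATAAA at -24 and, on the opposite strand, at -72, and TATTTAC at -89 and, on the opposite strand, at -194, counted from the start. TATAAA was in 12.4% and TATTTAC in 2.73% of all 32851 promoter windows. The Gc window held the HNF1 palindrome core at -51, which was in 0.116% of the windows. The Irx2 window held none of these. The E-box letters CANNTG, not capitalised, occurred 3 times in Gcg, where the one at -83 shares a base with TATTTAC, and once each in Gc and Irx2, and were in 66.2% of the windows. GC content was 44.8% for Gcg and 42.0% for Gc, with 7 and 0 CpG, and 68.4% for Irx2, with 19 CpG, where the median of all windows was 52.4%. A match of letters is a description and not a site.

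The first comparison asked how the loss of B7-H4 from beta cells of chow-fed mice bears on alpha-cell transcripts. Gcg was at 8304, 5649, 6320 and 5889 FPKM in cKO8, 9, 12 and 38, and at 15921, 10299, 7940 and 11368 FPKM in Flox16, 17, 20 and 21. Ttr was at 522, 313, 287 and 274 FPKM in the cKO libraries and at 803, 739, 560 and 654 FPKM in the Flox libraries, in the same order. Gc was at 22.6, 15.8, 13.7 and 15.4 FPKM in the cKO libraries and at 19.1, 43.1, 39.2 and 39.8 FPKM in the Flox libraries. For Ttr the groups did not overlap, as in 15.4% of all genes tested in this direction, whereas for Gcg cKO8 lay above Flox20 and for Gc above Flox16.

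The fit took in all 11804 genes whose mean reached 0.5 FPKM (limma on log2(FPKM + 0.5), Benjamini-Hochberg adjustment), and calls needed both an adjusted p under 0.05 and a log2 fold change over 1 in size. Ttr and Gc were called lower in cKO islets, 2 of the 5 genes tested, against 0.974% of all genes. On the log2 scale Ttr differed by -1.02 ± 0.19 (SE, n = 4 and 4, adjusted p = 0.0180, limma), which is 2.03-fold lower, and Gc by -1.002 ± 0.24 (adjusted p = 0.0242, limma), which is 2.00-fold lower. Both lie at the edge of the fold threshold. Gcg differed by -0.77 ± 0.21, 1.71-fold lower, and passed the adjusted p (0.0460, limma) but not the fold threshold. With it, 3 of the 5 genes were lower at an adjusted p under 0.05, as were 12.8% of all genes, and 86.9% of all genes had a negative fold change. The median gene was at -0.34, and relative to it Gcg, Ttr and Gc were at -0.43, -0.68 and -0.66.

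The transcription factors were at low levels. Irx1 was at 2.59, 1.80, 2.44 and 1.79 FPKM in cKO8, 9, 12 and 38 and at 4.58, 1.60, 2.42 and 3.38 FPKM in Flox16, 17, 20 and 21. Irx2 was at 1.63, 1.21, 1.33 and 0.967 FPKM in the cKO libraries and at 2.43, 1.13, 1.33 and 1.96 FPKM in the Flox libraries. For both genes the lowest Flox library was Flox17 and the groups overlapped. The log2 differences of -0.33 ± 0.24 for Irx1 (95% interval -0.83 to 0.16, adjusted p = 0.263, limma) and -0.28 ± 0.21 for Irx2 (-0.72 to 0.16, adjusted p = 0.286, limma) did not pass the test and were close to the median gene. The study listed Gcg and Irx2 among the genes it showed for these samples, so neither is an independent choice.

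In these bulk samples fewer alpha cells and less RNA per alpha cell cannot be told apart. By staining of pancreas sections the study reported a similar alpha-cell mass in cKO and control mice. That mass was taken as alpha-cell area over pancreas area. The study also reported comparable serum glucagon. The share of alpha cells in the sequenced islets was not given in the sources used here. Between the groups, the higher acinar share of the cKO libraries went with lower Gcg, Ttr and Gc. Within the cKO group cKO8 had the lowest acinar share (34.0%) and the highest Gcg, Ttr and Gc. Within the Flox group Ttr was highest in Flox16 and Flox17 (803 and 739 FPKM), which had its highest acinar shares (25.9 and 33.2%). Flox16 also had the highest Gcg (15921 FPKM) and the lowest Gc (19.1 FPKM) of that group, and Flox17 the highest Gc (43.1 FPKM). The part of the acinar share in the difference was not tested beyond the fits that follow. With each library divided by its median-of-ratios factor, the log2 differences were -0.39 for Gcg, -0.63 for Ttr and -0.63 for Gc, and none passed (adjusted p 0.462, 0.128 and 0.178, limma). With the acinar share as a covariate they were -0.89, -1.09 and -0.66 (adjusted p 0.596, 0.575 and 0.717, limma), in a fit where the 2 groups do not overlap in the covariate. The calls also rested on single libraries. Without cKO9 none of the 3 genes passed (adjusted p 0.139 for Gcg, 0.0623 for Ttr and 0.0802 for Gc). Gcg also missed the threshold without cKO12 (0.0974), cKO38 (0.120) or Flox21 (0.0647), and Gc without cKO12 (0.0519), cKO38 (0.0773), Flox20 (0.0691) or Flox21 (0.0769). The Ttr difference slipped under the fold threshold without cKO9 (-0.98), cKO12 (-0.94), cKO38 (-0.92), Flox16 (-0.94) or Flox17 (-0.98), and that of Gc without Flox17 (-0.88). Without Flox17, Irx1 passed the adjusted p (-0.55, adjusted p = 0.0394, limma). All 5 differences stayed negative when any 1 library was left out.

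**Figure D2:**
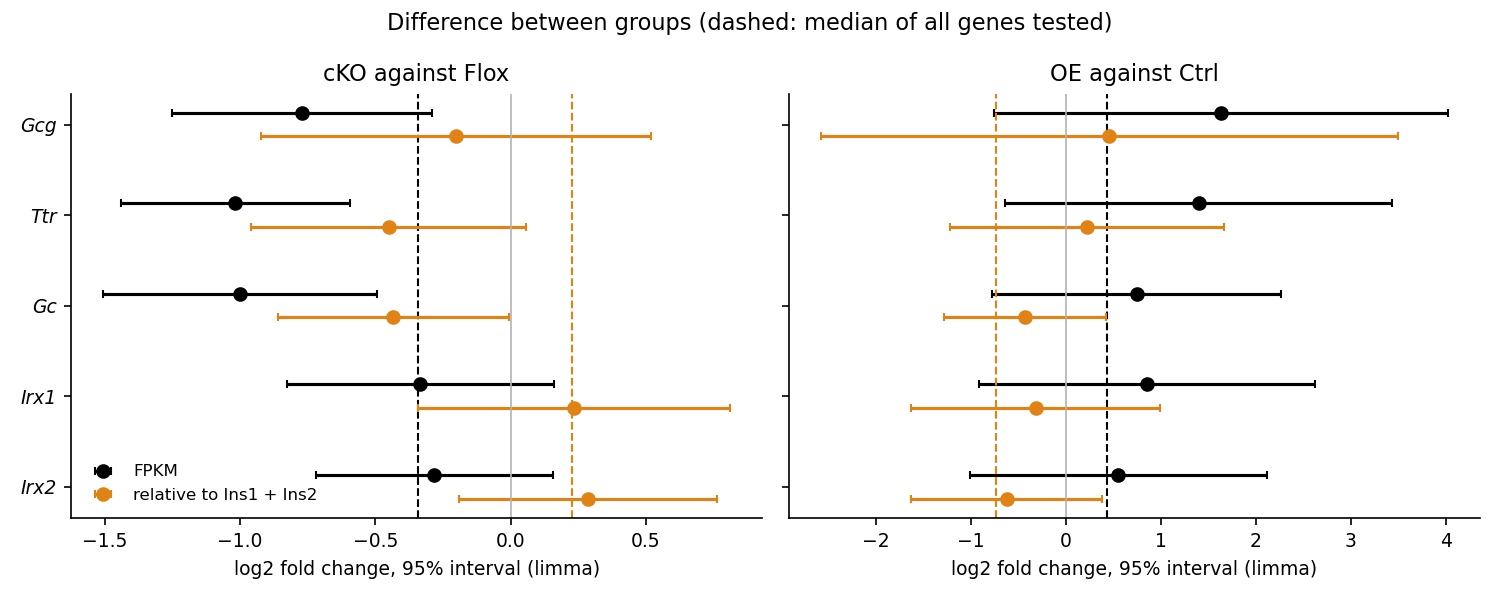
Log2 fold change of each tested gene with its 95% interval from limma, for FPKM (black) and relative to Ins1 plus Ins2 (orange), in cKO against Flox islets (left) and OE against Ctrl islets (right), with dashed lines at the median of all genes tested. The FPKM intervals of Gcg, Ttr and Gc lie below 0 in the left panel, and every FPKM interval in the right panel spans 0.

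The same genes were then set against insulin RNA, since Ins2 was itself lower in cKO islets (log2 difference -0.72 ± 0.12, adjusted p = 0.00744, limma). Per 1000 FPKM of Ins1 plus Ins2, Gcg was at 37.0, 30.6, 33.05 and 32.2 in cKO8, 9, 12 and 38 and at 66.5, 40.1, 24.2 and 32.8 in Flox16, 17, 20 and 21. The cKO values all lay within the Flox range. The mean log2 ratio differed by -0.20, with an exact two-sided permutation p of 0.657 over n = 4 and 4 libraries, where the smallest possible p is 0.0286. Ttr was at 1.499 to 2.33 per 1000 FPKM of insulin RNA in cKO and 1.70 to 3.35 in Flox libraries, and Gc at 0.0718 to 0.101 and 0.0796 to 0.168, and both overlapped.

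None of the 5 tested genes was called relative to insulin in limma, where 2.05% of all genes were. Only Gc had an unadjusted p under 0.05 (0.0473, limma), as 36.4% of all genes did. The log2 differences of the ratio were -0.20 ± 0.33 for Gcg, -0.45 ± 0.23 for Ttr (95% interval -0.96 to 0.06, adjusted p = 0.182, limma) and -0.43 ± 0.19 for Gc (-0.86 to -0.01, adjusted p = 0.133, limma). For Irx1 and Irx2 they were 0.23 ± 0.26 and 0.29 ± 0.22, next to 0.23 for the median gene. The sign for Gcg rested on Flox16, without which it was 0.07 (adjusted p = 0.825, limma). Without Flox16, Gc passed the adjusted p on the lower side (-0.61, adjusted p = 0.00961, limma), and Irx1 and Irx2 on the higher side (0.53 and 0.53, adjusted p 0.0127 and 0.0106, limma). With 6 other beta-cell genes as the denominator in place of insulin, Ttr passed the adjusted p (-0.97, 0.0202, limma), Gcg was at -0.72 (adjusted p = 0.05003, limma, not under 0.05) and Gc at -0.95 (adjusted p = 0.0916, limma), and Irx1 and Irx2 turned negative (-0.28 and -0.23).

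Gcg was also set against Sst, the somatostatin gene of the delta cell. Sst was itself at -0.39 ± 0.13 in cKO against Flox islets (adjusted p = 0.0533, limma). The ratio of Gcg to Sst FPKM was 4.63, 4.41, 4.15 and 5.50 in cKO8, 9, 12 and 38 and 7.95, 5.44, 4.70 and 6.58 in Flox16, 17, 20 and 21. The groups overlapped, and the mean log2 ratio differed by -0.38 (exact two-sided permutation p = 0.0857, n = 4 and 4).

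**Figure D3:**
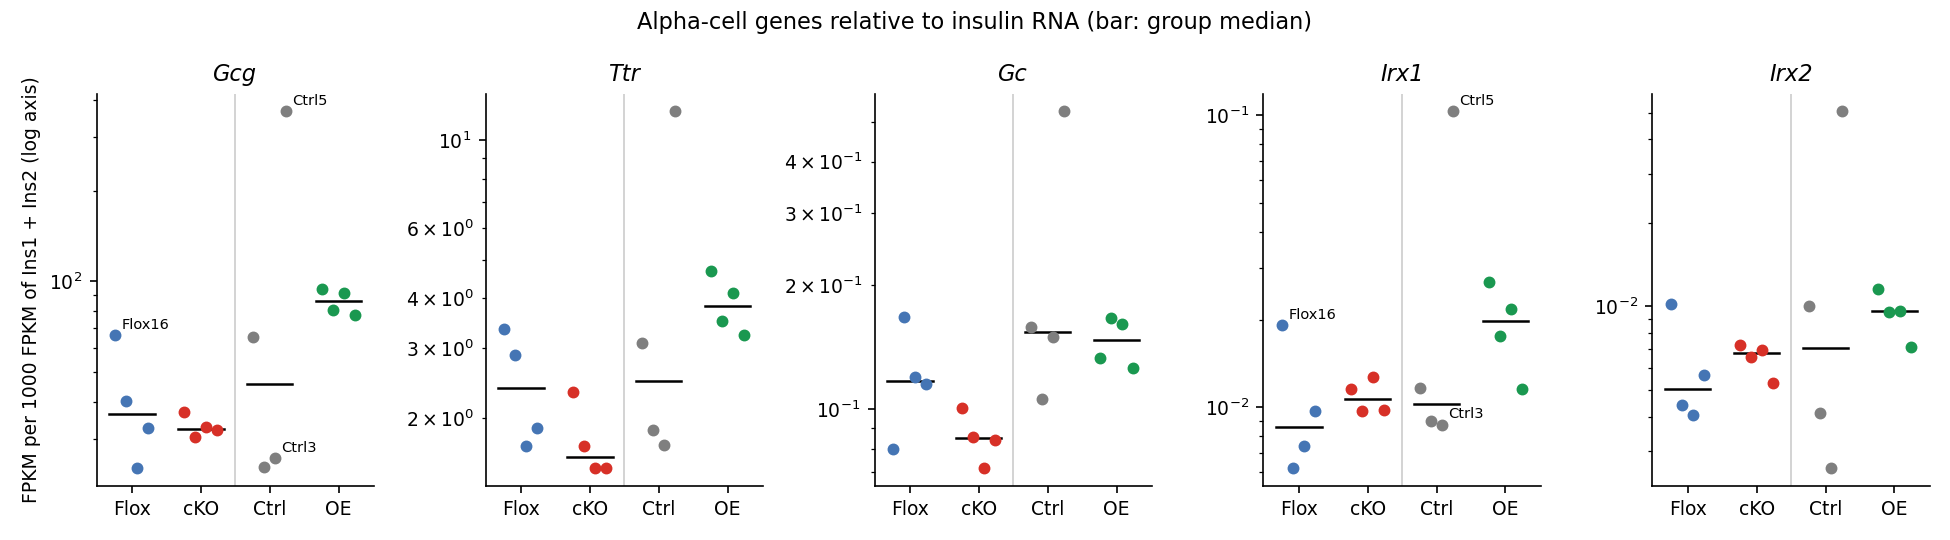
Level of 5 of the genes per 1000 FPKM of Ins1 plus Ins2 in each library, with a bar at the group median (log axes). The cKO points for Gcg (30.6 to 37.0) lie within the Flox range (24.2 to 66.5), and Ctrl5 (366) lies above all other libraries.

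The second comparison asked how B7-H4 expressed in beta cells of HFD-fed mice bears on alpha-cell transcripts. Gcg was at 30835, 25847, 28156 and 26964 FPKM in OE1 to OE4, and at 23091, 3470, 889 and 91444 FPKM in Ctrl1, 2, 3 and 5. The OE libraries were within 1.19-fold of each other and the Ctrl libraries spanned 103-fold. Ttr was at 1525, 1133, 1269 and 1125 FPKM in OE and at 1092, 266, 58.7 and 2954 FPKM in Ctrl libraries. Gc was at 43.4, 53.5, 49.5 and 43.8 FPKM in OE and at 56.0, 15.1, 5.13 and 133 FPKM in Ctrl libraries. In all 3 genes Ctrl5 lay above and Ctrl2 and Ctrl3 below every OE library. Ctrl1 lay below them for Gcg and Ttr and above them for Gc.

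Irx1 was at 8.73, 5.66, 6.70 and 4.03 FPKM in OE1 to OE4 and at 4.12, 1.28, 0.299 and 25.8 FPKM in Ctrl1, 2, 3 and 5. Irx2 was at 3.76, 3.06, 2.96 and 2.49 FPKM in OE and at 3.53, 0.589, 0.0894 and 12.6 FPKM in Ctrl libraries. In each of these genes the groups overlapped, whereas 5.61% of all genes were higher in OE with no overlap. The order Ctrl5, Ctrl1, Ctrl2, Ctrl3 was shared by Gcg, Ttr, Gc, Irx1 and Irx2, with spans over the Ctrl group of 103-, 50.4-, 25.9-, 86.3- and 141-fold. It was also the order of the acinar share turned round, which was 1.99, 5.10, 52.8 and 68.8% in these libraries.

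None of the 5 tested genes was called, and 4 of 12132 genes (0.0330%) were. At an unadjusted p under 0.05 there were 778 genes. The log2 differences were 1.63 ± 1.10 for Gcg (SE, n = 4 and 4, 95% interval -0.76 to 4.03, adjusted p = 0.591, limma), 1.40 ± 0.93 for Ttr, 0.75 ± 0.72 for Gc, 0.86 ± 0.82 for Irx1 and 0.55 ± 0.73 for Irx2, next to 0.44 for the median gene. For Irx2 the interval ran from -1.01 to 2.12, and none of the 5 genes had an unadjusted p under 0.05. Without Ctrl2 and Ctrl3, the libraries with more than 50% acinar RNA, all 5 differences turned negative, to -0.72, -0.52, -0.86, -0.75 and -1.04, and none passed. Ctrl2 and Ctrl3 also had the lowest values of all 5 genes in the Ctrl group, so leaving them out had to lower the differences. Leaving out 1 Ctrl library moved the differences as well. For Gcg they were 2.75 without Ctrl5, 2.09 without Ctrl1, 1.18 without Ctrl2 and 0.52 without Ctrl3, and for Ttr 2.28, 1.80, 1.12 and 0.40 in the same order. For Gc they were 1.49, 1.08, 0.46 and -0.031, for Irx1 1.81, 0.97, 0.51 and 0.13, and for Irx2 1.37, 0.80, 0.17 and -0.13. None of these passed. With the acinar share as a covariate all 5 were negative, from -0.59 for Irx2 to -0.03 for Ttr, and none passed.

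**Figure D4:**
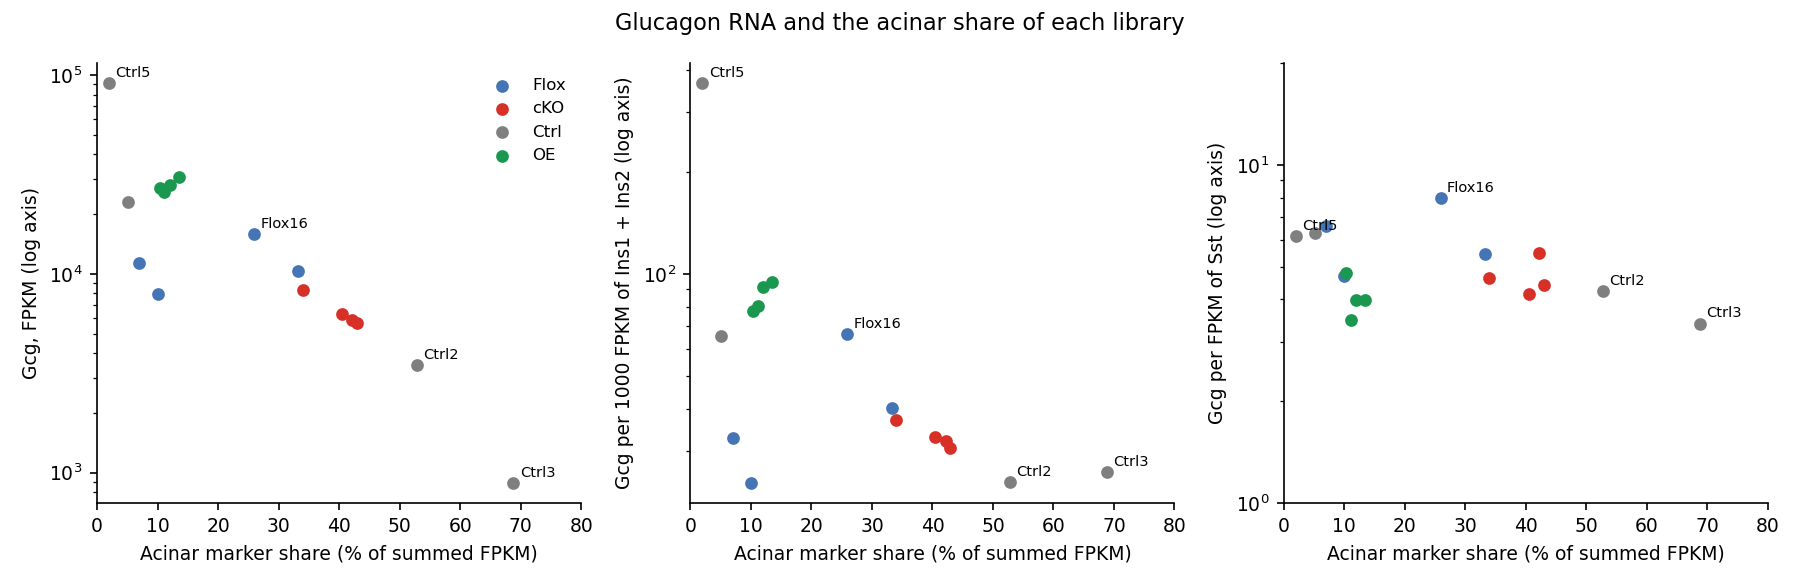
Gcg in FPKM (left), per 1000 FPKM of Ins1 plus Ins2 (middle) and per FPKM of Sst (right), against the share of 19 acinar genes in the summed FPKM of each library (log y axes). On the left Gcg runs from 91444 FPKM at an acinar share of 1.99% (Ctrl5) to 889 FPKM at 68.8% (Ctrl3), and on the right all 16 libraries lie between 3.39 and 7.95.

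Relative to insulin RNA the groups overlapped too. Per 1000 FPKM of Ins1 plus Ins2, Gcg was at 94.6, 80.2, 91.6 and 77.5 in OE1 to OE4 and at 65.3, 24.3, 25.96 and 366 in Ctrl1, 2, 3 and 5. The OE libraries lay above 3 of the Ctrl libraries and below Ctrl5. The mean log2 ratio differed by 0.46 with an exact two-sided permutation p of 0.743 over n = 4 and 4 libraries. In the fit of all genes relative to insulin 0 of 12132 were called (0%, limma), with 3809 at an unadjusted p under 0.05, and the median gene was at -0.74. The differences were 0.46 ± 1.47 for Gcg, 0.23 ± 0.70 for Ttr, -0.43 ± 0.41 for Gc, -0.32 ± 0.60 for Irx1 and -0.62 ± 0.49 for Irx2. Without Ctrl2 and Ctrl3 the ratios for Gcg and Ttr turned to -0.85 and -0.65, and those for Gc, Irx1 and Irx2 were -0.99, -0.88 and -1.17. Ctrl2 and Ctrl3 had the lowest ratios of these genes in the Ctrl group. Without Ctrl5 the ratios were 1.31 for Gcg, 0.84 for Ttr, 0.050 for Gc and 0.37 for Irx1. Without Ctrl3 they were 0.038 for Gcg and -0.085 for Ttr, and without Ctrl2 0.0065 and -0.048.

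Ctrl5 held more alpha-cell RNA for its insulin RNA than any other library. Ttr was at 11.8, Gc at 0.531, Irx1 at 0.103 and Irx2 at 0.0505 per 1000 FPKM of Ins1 plus Ins2 in Ctrl5, where the other Ctrl libraries reached at most 3.09, 0.159, 0.0117 and 0.00999. Sst (14856 FPKM) and the pancreatic polypeptide gene Ppy (16288 FPKM) were also at their highest of the 16 libraries there, as were the summed 4 macrophage genes (143 FPKM, at most 45.5 FPKM elsewhere) and the summed 4 endothelial genes (524 FPKM, at most 318 FPKM elsewhere). The part of these other cell types was not tested. The ratio of Gcg to Sst was 6.16 in Ctrl5, and 6.28, 4.23 and 3.39 in Ctrl1, 2 and 3. In OE libraries it was 3.99, 3.47, 3.98 and 4.79. The groups overlapped and the mean log2 ratio differed by -0.27 (exact two-sided permutation p = 0.286, n = 4 and 4). Over all 16 libraries Gcg spanned 103-fold in FPKM, and its ratio to Sst stayed between 3.39 and 7.95.

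The 6 genes did not keep fixed proportions to each other. Per 1000 FPKM of Gcg, Ttr lay between 32.3 (Ctrl5) and 76.6 (Ctrl2). Gc varied more, from 1.197 in Flox16 to 5.77 in Ctrl3, with 2.17 to 2.79 in cKO libraries and 1.41 to 2.07 in OE libraries. Irx2 lay between 0.0922 (OE4) and 0.214 (cKO9) and Irx1 between 0.150 (OE4) and 0.386 (cKO12). Flox16 had the highest Gcg, Ttr, Irx1 and Irx2 of the Flox group and the lowest Gc.

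Pou3f4 was near the limit of these libraries and, with a mean under 0.5 FPKM in both tables, was not tested. It was at 0.105, 0.0281, 0 and 0.0217 FPKM in cKO8, 9, 12 and 38 and at 0.141, 0.0136, 0.0317 and 0.133 FPKM in Flox16, 17, 20 and 21. It was at 0.218, 0.0123, 0.0745 and 0.116 FPKM in OE1 to OE4 and at 0.0788, 0.00628, 0 and 0.303 FPKM in Ctrl1, 2, 3 and 5. Each value was also multiplied by the relative depth of its library and expressed in whole steps of a unit common to the table. The values were then 15, 4, 0 and 3 steps in cKO and 21, 2, 5 and 20 in Flox libraries. They were 36, 2, 13 and 19 in OE and 11, 1, 0 and 41 in Ctrl libraries. Ctrl5 was again the highest, Ctrl3 and cKO12 were listed at 0, and the groups of each table overlapped.

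Over the 16 libraries the genes whose pattern was most like that of Gcg were ranked among 11552 genes by Pearson correlation of log2(FPKM + 0.5), after scaling each library by its median-of-ratios factor and centring each table. Among the first 10 were Resp18 (0.969), Pappa2 (0.966), Ttr (0.964), Vwde (0.963), Sst (0.952), Cltrn (0.952), H2bu2 (0.952), Irx2 (0.950) and Nyap1 (0.948). Pappa2 encodes a protease of insulin-like growth factor binding proteins and Cltrn collectrin. The libraries share the acinar share and the total of endocrine RNA, so these values describe and do not test. Irx1 was at rank 37 (0.908) and Gc at rank 301 (0.767). Without Ctrl5 Irx1 was at rank 130 (0.880) and Gc at rank 1749 (0.662), and without scaling Gc was at rank 1345. Without scaling 5 of these 10 genes stayed among the first 10, with Spearman correlation 4, and without Ctrl5 5. Between the tested members the correlation ran from 0.621 for Gc and Irx1 to 0.964 for Gcg and Ttr, with 0.961 for Irx1 and Irx2. Without Ctrl5 the pair of Gc and Irx1 was at 0.368, and that of Gcg and Ttr at 0.955.

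Other genes of the alpha cell and of glucagon formation were taken from lists chosen with earlier results of these data known. In cKO against Flox islets, 3 of 8 other alpha-cell genes were lower and 1 higher at an adjusted p under 0.05 (12.8% and 1.02% of all genes), with a median log2 difference of -0.29 where all genes had -0.34. Slc7a2, a transporter of cationic amino acids, was lower by -1.05 ± 0.23 (adjusted p = 0.0193, limma), and the ETS factor Etv1 by -0.998 ± 0.19 (adjusted p = 0.0129, limma). The imprinted zinc finger gene Peg3 was lower by -0.73 ± 0.19. Slc38a5, a glutamine transporter, was higher by 1.82 ± 0.32 (adjusted p = 0.0180, limma), with no overlap of the groups. Its pattern did not follow that of Gcg, with a Pearson correlation of -0.39 after scaling, at rank 8497 of 11552 genes. The adjusted p of Slc38a5 was 0.0530 after median-of-ratios scaling (2.18), 0.506 with the acinar covariate (0.63), 0.0838 without a minimum level, and 0.0611, 0.0588 and 0.0603 without cKO9, cKO38 and Flox20. For Etv1 it was 0.0576 without cKO9, 0.0838 without a minimum level and 0.506 with the acinar covariate.

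Of 6 genes of prohormone processing, 5 were lower in cKO islets and 0 higher, with a median of -0.53, where 12.8% of all genes were lower and 1.02% higher at an adjusted p under 0.05 and the median gene was at -0.34. The same shares of all genes stand beside the receptors. Pcsk2, which encodes the convertase that releases glucagon, differed by -0.56 ± 0.14 (adjusted p = 0.0213, limma) and its chaperone gene Scg5 by -0.66 ± 0.14 (adjusted p = 0.0162, limma), whereas Pcsk1, the convertase gene prominent in beta cells, was at 0.23 ± 0.15 (adjusted p = 0.232, limma). Carboxypeptidase E (Cpe, -0.47 ± 0.12), the amidating enzyme Pam (-0.69 ± 0.17) and the convertase inhibitor precursor Pcsk1n (-0.49 ± 0.16) were the other lower genes. These genes are also used by beta and delta cells. Of 8 receptors tested, 3 were lower, namely the glucagon receptor gene Gcgr (-0.86 ± 0.25), the fatty acid receptor gene Ffar1 (-0.79 ± 0.23) and the vasopressin receptor gene Avpr1b (-0.70 ± 0.22). Of 7 islet transcription factors tested 0 passed in limma and 6 had an unadjusted p under 0.05, as 41.5% of all genes did, with a median of -0.53, and Isl1 (-0.56 ± 0.19) came closest (adjusted p = 0.0501). After median-of-ratios scaling, 1 of the other alpha-cell genes and 0 of the other 3 lists were lower at an adjusted p under 0.05 (medians 0.04, -0.14, -0.27 and -0.15). With any 1 library left out, the counts of lower genes ran from 0 to 5 for the alpha-cell and the processing genes. They ran from 0 to 4 for the receptors and from 0 to 6 for the transcription factors, with 0 in all 4 lists without cKO9. The genes called over all genes ran from 18 to 507 in these fits, so these counts are not read as results about the lists.

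In OE against Ctrl islets no gene of these 4 lists passed. The median log2 differences were 0.94 for other alpha-cell genes, 1.33 for prohormone processing, 0.61 for the receptors and 0.94 for the transcription factors, next to 0.44 for all genes. At an unadjusted p under 0.05 were 1, 3, 2 and 1 genes of these lists and 6.41% of all genes. All 6 processing genes and all 7 transcription factors had positive differences, where 15.8% of all genes had negative ones. Without Ctrl2 and Ctrl3 the medians were -0.38, 0.00, -0.02 and -0.04.

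Relative to insulin RNA in cKO against Flox islets, Etv1 was lower (-0.43 ± 0.11, adjusted p = 0.0343, limma), as 0.356% of all genes were, and Slc38a5 higher (2.39 ± 0.47, adjusted p = 0.0274, limma). Neither call held throughout. The adjusted p of Etv1 was 0.0713 with 1 FPKM added, 0.466 with the acinar covariate, 0.0676 with the heatmap libraries, 0.0792 against Ins2 alone, 0.0941 with the replicate block and 0.0701 to 0.106 without cKO8, cKO9, cKO12, cKO38, Flox20 or Flox21. That of Slc38a5 was 0.391 with the acinar covariate, 0.0561 against the other beta-cell genes, 0.0577 with the replicate block and 0.0611 to 0.0881 without cKO9, cKO12, cKO38, Flox20 or Flox21. Of the 6 processing genes and the 8 receptors tested, 0 were lower at an adjusted p under 0.05. Their medians were 0.040 and 0.0081, next to 0.23 for all genes. Pcsk2 was at 0.0056 and Scg5 at -0.093. Gcgr was at -0.29 (adjusted p = 0.218, limma) and Ffar1 at -0.22 (adjusted p = 0.323, limma). The somatostatin receptor gene Sstr2 (0.97 ± 0.21), Pcsk1 (0.80 ± 0.21), the GLP-1 receptor gene Glp1r (0.64 ± 0.18) and Nkx2-2 (0.63 ± 0.18) passed on the higher side, where 13.2% of all genes passed. Of the genes named here Slc38a5 also passed the fold threshold.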

How the data were processed

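RNA of islets picked by hand after collagenase digestion was sequenced on an Illumina NovaSeq instrument. The authors deposited 2 tables of FPKM, made separately, one for cKO and Flox and one for Ctrl and OE. The labels name the build mm10, and the aligner, counting tool and annotation are not given in the sources used here. The tables hold no counts, so no counting interval can be given. For the ranges of relative depth, low values were read as whole multiples of a step (tolerance 0.05 of a step).

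Each table was fitted alone with all 4 libraries per group in limma 3.58.1 (R 4.3.3), on log2(FPKM + 0.5) for genes whose mean reached 0.5 FPKM, with a variance trend, robust empirical Bayes moderation and Benjamini-Hochberg adjustment over all genes, two-sided. Calls needed both an adjusted p under 0.05 and a log2 fold change over 1 in size, thresholds the paper uses. A fold change on this scale understates changes of low genes. For the ratio, log2(Ins1 + Ins2) of the same library was subtracted, and Gcg ratios without an added value were compared by exact permutation of libraries (scipy 1.17.1). The fits were also run on simulated data with independent noise. There the spread per gene was capped below that of Gcg in the Ctrl libraries (log2 SD 2.95). That run does not show how the fits perform at the spread of the Ctrl libraries. The alternatives were other added values and minimum levels, median-of-ratios scaling, the acinar share as a covariate, no trend, a replicate block, other denominators, the 3 libraries per group of the paper's heatmaps and leaving out each library. Promoter windows are RefSeq sequence of GRCm38.p6.

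The 6 genes, the gene lists and the marker lists were chosen with earlier results of these data known. Named were the 6 genes, the genes of those lists, insulin genes, Vtcn1 and genes among the 10 most correlated with Gcg, and some genes under this rule are not reported here. Clca1, Ppy and Alb come from the marker lists.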

Additional observations from a re-analysis of the deposited data

Results flagged for a closer look

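Of 48 sets of 4 libraries examined (a gene in a group, in FPKM or per 1000 FPKM of Ins1 plus Ins2), 8 held a library far from the other 3 by Dixon's criterion, where chance alone gives about 1 in 20. Ctrl5 accounts for 6 of them. Relative to 1000 FPKM of insulin RNA it stood at 366 for Gcg, 11.8 for Ttr, 0.531 for Gc, 0.103 for Irx1 and 0.0505 for Irx2, and in FPKM at 25.8 for Irx1. These 6 values come from 1 library and are not separate observations, and the same library had the lowest acinar share (1.99%) and the highest Sst and Ppy of the 16. The other flagged values were Ttr in cKO8, at 522 FPKM the highest of its group, and Gc in Flox16, at 19.1 FPKM the lowest of its group. Of the cKO libraries cKO8 had the lowest acinar share (34.0%).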

How the results depend on the processing

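Median-of-ratios scaling moved the median gene from -0.34 to -0.0023 in cKO against Flox and from 0.44 to -0.0040 in OE against Ctrl (log2). In cKO against Flox, 155 genes were called. The count was 84 and 307 with 1 and 0.1 FPKM added, 0 without a minimum level, 36 after scaling, 0 with the acinar covariate, 272 without trend and robust fitting, 699 with the 3 libraries per group that the heatmaps show and 18 to 507 with 1 library left out. The members called, 2, became 1 with 1 FPKM added, 0 without a minimum level, after scaling or with the acinar covariate, and 0 to 2 with 1 library left out. Irx2 turned to 0.0010 after scaling and Irx1 to 0.0039 with the acinar covariate. In OE against Ctrl, 4 genes were called, 10 without a minimum level, 252 with the acinar covariate and 4 to 5 with 1 library left out. A further setting was added after seeing the data, without Ctrl2 and Ctrl3, where 649 genes were called. Leaving out libraries by their Gcg values was also tried and set aside, since Gcg was the value tested. Ctrl2 and Ctrl3 were also the Ctrl libraries with the lowest Gcg, so the setting without them is not independent of that value.

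With these Irx values, 14 levels and 11 ratios of single members reversed. With the acinar covariate, OE against Ctrl gave -0.090 for Gcg, -0.027 for Ttr, -0.43 for Gc, -0.31 for Irx1 and -0.59 for Irx2, and relative to insulin -0.45 for Gcg and -0.39 for Ttr. Without Ctrl2 and Ctrl3 the levels were -0.72, -0.52, -0.86, -0.75 and -1.04 in the same order, and relative to insulin -0.85 for Gcg and -0.65 for Ttr. With 1 library left out, OE against Ctrl ran from -0.031 to 1.49 for Gc and -0.13 to 1.37 for Irx2, and relative to insulin from -0.085 to 0.84 for Ttr, -0.71 to 0.050 for Gc and -0.66 to 0.37 for Irx1. Without Ctrl2, Ttr relative to insulin was -0.048. In cKO against Flox, Gcg relative to insulin ran from -0.42 to 0.065, and with other beta-cell genes as denominator Irx1 and Irx2 were -0.28 and -0.23. The causes of these changes were not tested.

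With the replicate number as a block, 268 genes were called in cKO against Flox, against 155 without it, and the members called stayed at 2. The receptors lower went from 3 to 4 and the transcription factors lower from 0 to 5. The share of all genes lower in that fit is not given here, so these counts are not read as results about the lists. Relative to insulin, Etv1 (adjusted p = 0.0941, limma) and Slc38a5 (0.0577) no longer passed, the processing genes higher went from 1 to 0 and the receptors higher from 2 to 1, and in OE against Ctrl 1 other alpha-cell gene was lower, against 0 without the block. Samples of the same number share only that number. The correlation of their deviations ran from -0.21 to 0.12 in cKO and Flox, with 0 of 4 numbers best matched to themselves, and from -0.13 to 0.10 in Ctrl and OE, with 1 of 4. With 4 libraries per group and no counts, depth cannot set an error on the low values of Irx1, Irx2 and Pou3f4.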
